A study of Homo sapiens with 6 samples.

Results

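Transcripts of 10 genes of glutathione synthesis, recycling and use were followed in SCC-9, an established human cell line that was derived from a squamous carcinoma of the tongue. The genes are SLC7A11, GCLC, GCLM, GSS, GSR, GPX1, GPX2, GPX4, GSTP1 and MGST1. They were chosen by symbol, as genes of known function in glutathione metabolism, with earlier results of these data known. They are 10 of the 25349 genes in the deposited count table. All samples came from this line, and the labels give the siRNA as the only difference between the groups. In the siE7 group the siRNA targeted exon 7 of MKI67, which encodes the proliferation marker Ki67, and in the siNC group it was nonspecific. Cells of both groups were grown with 400 ng/mL hydrocortisone and transfected with 10 nM siRNA on day 0 and once more on day 2. They were harvested for RNA on day 4. Each group had 3 libraries. The comparison asks which transcripts of the glutathione system differ when exon 7 transcripts of MKI67 are targeted. The study lists 3 siRNAs against exon 7 without saying which of them was sequenced here, and all libraries come from 1 cell line. The labels do not say whether the libraries came from separate cultures, so p-values measure only the spread between these libraries.

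Glutathione is a small peptide of glutamate, cysteine and glycine and the most abundant thiol of most cells. Cystine is imported and reduced to cysteine, glutamate-cysteine ligase makes the dipeptide, and glutathione synthetase adds glycine. Peroxidases use glutathione to reduce peroxides, transferases join it to reactive compounds, and glutathione reductase turns the oxidized form back. A pair of transcription factors are textbook activators of some of these genes. NRF2, the product of NFE2L2, binds antioxidant response elements, and ATF4 responds to shortage of amino acids and to stress of the endoplasmic reticulum.

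The libraries held between 25608192 and 29550264 counts on genes. MKI67, the targeted gene, was at 1059 ± 26.7 CPM (counts scaled to the library size with TMM factors, mean ± SD, n = 3) with siNC and at 115 ± 8.70 CPM (n = 3) with siE7. Its log2 fold change was -3.21 (standard error, SE, 0.114; edgeR, adjusted p = 6.7e-08). Since reads were summed over the whole gene, isoforms with and without exon 7 are not separated. All 8 squamous epithelial markers passed the filter on low counts, and their sum, to which KRT14 gave the largest part, was 23300 to 24800 CPM with siNC and 21300 to 27800 CPM with siE7. Within this list 1 marker was called higher with siE7 (KRT17, mean 1727 CPM with siNC against 2799 CPM with siE7) and 4 were called lower (in the same order CDH1, 171 against 83.6 CPM, KRT5, 2408 against 1584, SFN, 7077 against 4647, and TP63, 154 against 122). What part these marker changes have in the results on the glutathione genes was not tested. Sums of immune and endothelial markers were at most 0.492 CPM in every library. Of 6 fibroblast markers 2 passed, the collagen genes COL1A1 and COL1A2, and the sum of the 6 was 16.5 to 19.6 CPM with siNC and 18.2 to 24.2 CPM with siE7. In a bulk culture, fewer cells with a transcript and less of it per cell cannot be told apart.

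The siE7 replicate 1 library stood apart from siE7 replicates 2 and 3. It separated from them on the second principal component, which held 16.9% of the variance. Its departure from the mean of the other siE7 libraries was correlated with the GC content of the transcripts (r = 0.646 across 14645 genes, which are not independent replicates). In the siNC libraries the same correlation lay between -0.0467 and 0.0408. Among the glutathione genes, this library was lower than the mean of the other siE7 libraries on the log2 scale for SLC7A11 (-0.72, GC content 35.4%), GCLM (-0.51, 37.3%) and GCLC (-0.31, 44.2%). It was higher for GSTP1 (0.64, 62.5%), GSS (0.45, 54.2%), GPX4 (0.31, 62.5%), GPX2 (0.31, 53.1%), GPX1 (0.26, 64.1%) and GSR (0.16, 46.7%). Results that rest on this library are given with and without it.

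Promoter sequences are shown for the tested members whose window holds the core of the antioxidant response element, since this is the known DNA element of the pathway. RefSeq windows of 300 bases on GRCh38.p14, from 250 bases before to 50 bases after the annotated start, were matched for 7 of the 10 genes. SLC7A11, GSS and GSR were not matched. Both strands were searched for TGACNNNGC, in which N is any base, and this core was found in 4687 of 35116 promoters (13.3%). It was found once in the windows of GCLM, GPX2 and GSTP1, in 1 of 3 windows of MGST1, and in none of those of GCLC, GPX1 and GPX4. The 150 bases before the start are printed 5′ to 3′ on the strand of the gene, with the match in capitals.
GCLM, chr1:93909431-93909580, minus strand: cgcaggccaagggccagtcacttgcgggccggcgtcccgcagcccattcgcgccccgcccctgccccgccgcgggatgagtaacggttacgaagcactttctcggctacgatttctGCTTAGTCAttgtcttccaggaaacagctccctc
GPX2, chr14:64942746-64942895, minus strand: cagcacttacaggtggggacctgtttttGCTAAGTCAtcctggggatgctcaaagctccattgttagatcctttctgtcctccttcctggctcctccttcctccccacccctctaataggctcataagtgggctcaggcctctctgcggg
GSTP1, chr11:67583662-67583811, plus strand: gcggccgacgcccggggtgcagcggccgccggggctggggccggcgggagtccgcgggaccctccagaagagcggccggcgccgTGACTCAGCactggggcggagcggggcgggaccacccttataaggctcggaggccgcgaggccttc
The match began 34 bases before the start in GCLM and 122 bases before it in GPX2, and in these genes it read in the reverse direction. In GSTP1 it began 66 bases before the start and read forward. These starts are those of RefSeq. The GENCODE spans of the printed genes, given below, begin within the printed stretches, and for GSTP1 the span begins before the match. The ATF4 element TGATGNAA, found in 1270 promoters (3.62%) on either strand, was in none of the members' windows. A match of letters is a description and not a binding site. Of the genes printed, GCLM and GPX2 were higher with siE7 and GSTP1 was not called.

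Across the members, 5 genes were higher with siE7 and 1 was lower. The higher ones were SLC7A11, GCLC, GCLM, GSR and GPX2, and the lower one was GPX1. GSS, GPX4 and GSTP1 were tested and not called, and MGST1 had too few counts for a test. A gene was called at an adjusted p under 0.05 in the quasi-likelihood test of edgeR, adjusted by the Benjamini-Hochberg method over 14661 tested genes. By this rule 34.0% of all tested genes were called, 18.0% higher and 16.0% lower, beside 6 of the 9 tested members (66.7%). A differentially expressed gene (DEG) also had a log2 fold change beyond 1, which held for 12.2% of all tested genes (7.38% higher and 4.84% lower) and for 1 member, the upregulated SLC7A11. The 9 tested members had a median log2 fold change of 0.91, beside 0.08 over all tested genes. The libraries of the groups did not overlap for the same 6 members, beside 47.6% of all tested genes (24.9% higher and 22.7% lower). Since the members were chosen with earlier results of these data known, these comparisons with all tested genes are descriptions and no test of enrichment.

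**Figure D1:**
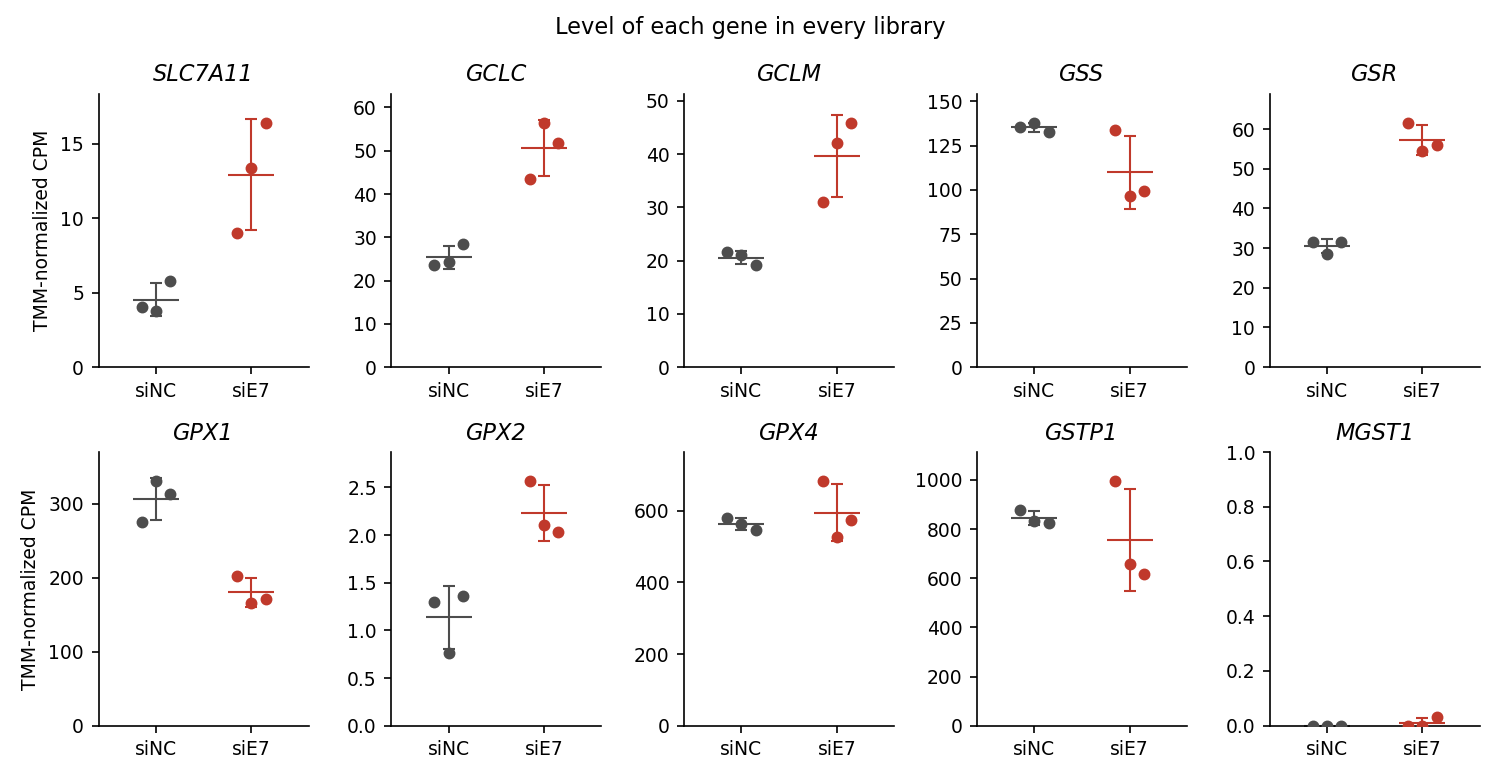
Level of each of the 10 genes in TMM-normalized CPM (vertical axis, from 0, own scale per panel) in the 3 siNC libraries (grey) and the 3 siE7 libraries (red). Points are libraries in the order of replicates 1 to 3, the horizontal line is the mean and the bar is the SD. All siE7 points lie above all siNC points for SLC7A11, GCLC, GCLM, GSR and GPX2 and below them for GPX1, and the groups overlap for GSS, GPX4 and GSTP1.

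Cystine import is represented by the transcript of SLC7A11 (ENSG00000151012.13, chr4:138164097-138242349 of GRCh38, minus strand), the light chain of the cystine and glutamate exchanger xCT. Import itself was not measured. SLC7A11 had 99, 94 and 153 counts in siNC replicates 1 to 3, which are 4.01, 3.76 and 5.79 CPM. It had 267, 369 and 501 counts in siE7 replicates 1 to 3, which are 9.01, 13.4 and 16.4 CPM. The groups did not overlap, and the lowest siE7 value was that of replicate 1. Mean levels were 4.52 ± 1.11 CPM for siNC and 12.9 ± 3.71 CPM for siE7 (SD, n = 3 each), so SLC7A11 was 2.85-fold higher with siE7. This is a log2 fold change of 1.51 (SE 0.248, 95% interval 0.97 to 2.06, edgeR adjusted p = 9.24e-04), or 1.65 without siE7 replicate 1. SLC7A11-AS1, which overlaps 8.97% of the exon bases on the opposite strand, had 1 count in all libraries together. The heavy chain of the same exchanger, SLC3A2, was far more abundant and was not called. Its levels were 526, 535 and 520 CPM with siNC and 670, 517 and 580 CPM with siE7, and the groups overlapped. SLC3A2 had a log2 fold change of 0.16 (SE 0.116, 95% interval -0.09 to 0.42, edgeR adjusted p = 0.308). Without siE7 replicate 1 its log2 fold change was -0.0027, and without TMM factors it was 0.32 and called (adjusted p = 0.021). SLC3A2 also pairs with other amino acid transporters.

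Glutamate-cysteine ligase catalyses the rate-limiting step of glutathione synthesis. It has a catalytic subunit, GCLC, and a modifier subunit, GCLM, which raises the activity of the enzyme. GCLC (ENSG00000001084.13, chr6:53497341-53616970, minus strand) was at 23.5, 24.3 and 28.4 CPM with siNC and at 43.6, 56.5 and 51.8 CPM with siE7. GCLM (ENSG00000023909.10, chr1:93885199-93909456, minus strand), whose promoter is printed above, was at 21.6, 21.1 and 19.1 CPM with siNC and at 31.0, 42.2 and 45.9 CPM with siE7. For both subunits the siE7 libraries were higher than any siNC library, and siE7 replicate 1 was the lowest of its group. GCLC had a log2 fold change of 0.99 (SE 0.139, edgeR adjusted p = 3.33e-04), with means of 25.4 ± 2.65 CPM and 50.6 ± 6.53 CPM (SD, n = 3 each). That of GCLM was 0.95 (SE 0.158, edgeR adjusted p = 9.99e-04), with means of 20.6 ± 1.28 CPM and 39.7 ± 7.75 CPM (SD, n = 3 each). Both lay just under the fold limit of a DEG, and whether they passed it depended on the setting. Without siE7 replicate 1 they were DEGs, at 1.03 for GCLC and 1.04 for GCLM, and also without composition scaling. GCLC alone was a DEG with upper-quartile scaling, with at least 10 counts in every library and without siNC replicate 3. After removal of each library's GC trend both stayed under the limit, at 0.890 for GCLC and 0.871 for GCLM. The same held with DESeq2 (0.933 and 0.887). GCLC shares 6.14% of its exon bases with a long noncoding RNA on the same strand that had 3 counts over the siNC and 39 counts over the siE7 libraries. Within each library the ratio of GCLC to GCLM counts was 1.09, 1.15 and 1.49 with siNC and 1.40, 1.34 and 1.13 with siE7. The groups overlapped, and the log2 ratio differed by 0.06 (exact two-sided permutation test, p = 0.9).

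Glutathione synthetase, GSS (ENSG00000100983.12, chr20:34928432-34956027, minus strand), completes the synthesis by adding glycine. It was at 135.5, 137.8 and 132.7 CPM with siNC and at 133.6, 96.5 and 99.6 CPM with siE7. The siE7 replicate 1 value lay within the siNC range, and the other siE7 values lay below every siNC value. With all libraries GSS had a log2 fold change of -0.30 (SE 0.135, 95% interval -0.60 to -0.0058) and it was not called (edgeR adjusted p = 0.106). Without siE7 replicate 1 it was -0.53 and GSS was called lower (adjusted p = 4.2e-10). After removal of each library's GC trend it was -0.32 and also called (adjusted p = 0.0034). The ratio of GCLC to GSS counts was 0.173, 0.176 and 0.214 with siNC and 0.326, 0.585 and 0.520 with siE7, a 2.47-fold difference of the mean log2 ratios. These groups did not overlap, with p = 0.1 (exact two-sided permutation test), the smallest p that 3 against 3 libraries can reach.

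GSR (ENSG00000104687.14, chromosome 8, minus strand) encodes glutathione reductase, which regenerates reduced glutathione with NADPH. GSR was at 31.6, 28.5 and 31.5 CPM with siNC and at 61.6, 54.4 and 56.1 CPM with siE7. The siE7 libraries were close to each other and all lay above the siNC libraries. The means were 30.6 ± 1.74 CPM and 57.3 ± 3.76 CPM (SD, n = 3 each), a 1.88-fold rise. On the log2 scale this is 0.91 (SE 0.118, 95% interval 0.65 to 1.17, edgeR adjusted p = 1.95e-04), or 0.79 without siE7 replicate 1.

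Of the 3 peroxidases GPX1 was lower, GPX2 was higher with a call that depended on the setting, and GPX4 was not called. GPX1 is the abundant cytosolic glutathione peroxidase, GPX2 is the gastrointestinal and epithelial form, and GPX4 reduces lipid hydroperoxides in membranes and protects from ferroptosis. GPX1 (ENSG00000233276.8, chr3:49357174-49358605, minus strand) was at 275.5, 330.5 and 313.8 CPM with siNC and at 202.7, 166.4 and 171.6 CPM with siE7. No siE7 library reached the siNC range, and the siE7 level was 58.8% of the siNC level by the fitted fold change. The means were 307 ± 28.2 CPM and 180 ± 19.6 CPM (SD, n = 3 each), and the log2 fold change of GPX1 was -0.77 (SE 0.121, edgeR adjusted p = 7.16e-04). Without siE7 replicate 1 it was -0.92. GPX1 shares 39.9% of its exon bases with another annotated gene on the same strand (ENSG00000290318), which has no row in the table, and its pseudogene copy GPX1P1 held 12 to 29 counts per library.

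GPX2 (ENSG00000176153.12, chr14:64939152-64942746, minus strand), with the second promoter printed above, was low. It had 32, 19 and 36 counts with siNC and 76, 58 and 62 counts with siE7, or 1.30, 0.761 and 1.36 CPM against 2.56, 2.10 and 2.03 CPM. The groups did not overlap, and siNC replicate 2 was the lowest library. GPX2 had a log2 fold change of 0.96 (SE 0.296, 95% interval 0.32 to 1.61, edgeR adjusted p = 0.0267). This call was lost with DESeq2 (0.91, adjusted p = 0.059), without siNC replicate 1 (1.06, adjusted p = 0.057), without siNC replicate 2 (0.74, adjusted p = 0.12) and without siE7 replicate 2 (1.00, adjusted p = 0.053).

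GPX4 (ENSG00000167468.18, chr19:1103982-1106791, plus strand) was at 578.8, 563.8 and 546.6 CPM with siNC and at 681.9, 525.7 and 575.1 CPM with siE7. The siE7 values lay on both sides of the siNC range, with replicate 1 the highest. GPX4 had a log2 fold change of 0.08 (SE 0.118, 95% interval -0.18 to 0.34, edgeR adjusted p = 0.636). Without siE7 replicate 1 it was -0.09 (adjusted p = 0.16), so the direction turned with that library.

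**Figure D2:**
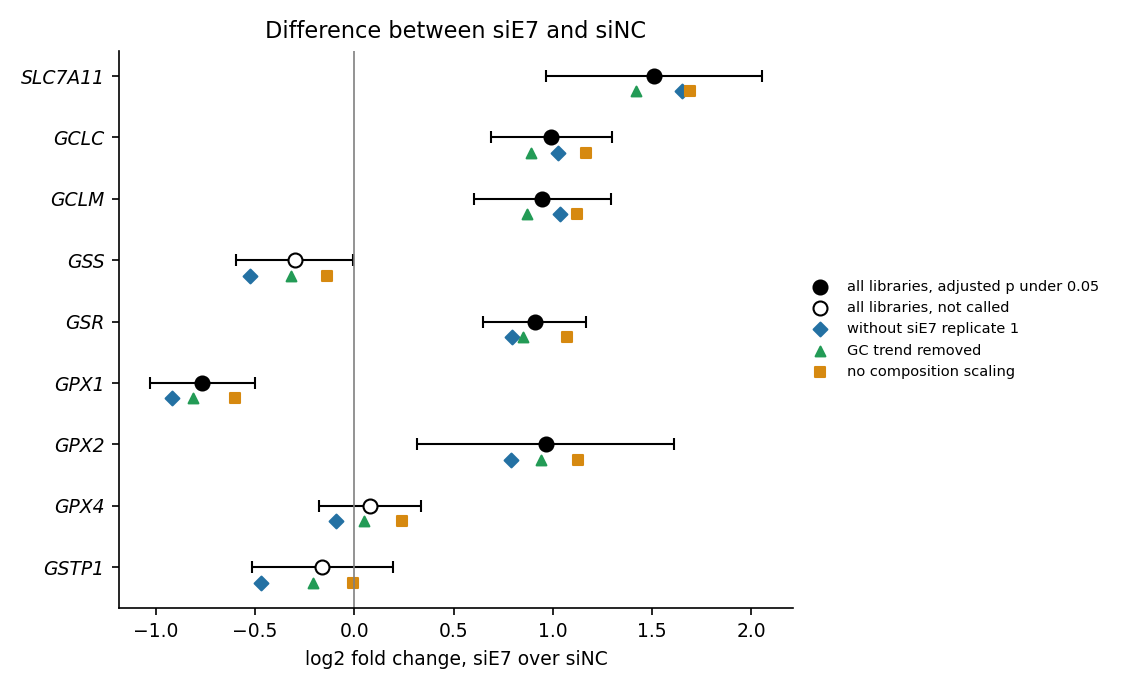
Log2 fold change of siE7 over siNC (horizontal axis) for the 9 tested genes (vertical axis). Circles with 95% intervals are the fit of all libraries, filled where called, and the smaller symbols are the fits without siE7 replicate 1, with the GC trend removed and without composition scaling. The called genes kept their sign in these fits, and GPX4 lies on both sides of 0.

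GPX1 and GPX4 could also be compared without any library scaling, as a ratio of counts within each library. The ratio of GPX1 to GPX4 was 0.476, 0.586 and 0.574 with siNC and 0.297, 0.317 and 0.298 with siE7. The siE7 ratios lay close together and below every siNC ratio, with a difference of -0.84 in the log2 ratio. The ratio of GSR to GPX1 was 0.115, 0.0864 and 0.10 with siNC and 0.304, 0.327 and 0.327 with siE7. Here the siE7 ratios were higher than any siNC ratio, 3.19-fold by the mean log2 ratios. GPX2 against GPX1 was 3.39-fold higher with siE7, and SLC7A11 against its heavy chain SLC3A2 was 2.53-fold higher. Of the 6 ratios tested, these 4 and GCLC against GSS did not overlap between groups. Each gave p = 0.1 in the exact two-sided permutation test, the smallest possible, and 0.12 after Benjamini-Hochberg adjustment over the 6 ratios. In these 5 ratios the direction held without siE7 replicate 1, with log2 differences from -0.82 for GPX1 against GPX4 to 1.74 for GPX2 against GPX1. Each of them holds a gene already called, and GPX1 is in several, so the ratios add no separate support to the fold changes. No share of other gene pairs without overlap is given here.

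Glutathione transferases were represented by GSTP1, the pi class enzyme of the cytosol, and MGST1, a microsomal enzyme. GSTP1 (ENSG00000084207.18, chr11:67583742-67586656, plus strand), the third promoter printed above, was at 879.6, 834.0 and 823.3 CPM with siNC and at 994.5, 656.1 and 618.3 CPM with siE7. The siE7 replicate 1 library was the highest of all 6 and the other siE7 libraries were the lowest. GSTP1 had a log2 fold change of -0.16 (SE 0.163, 95% interval -0.52 to 0.20, edgeR adjusted p = 0.471). Without siE7 replicate 1 it was -0.47 and called lower (adjusted p = 5e-09), and with the GC trend removed it was -0.21 (adjusted p = 0.049). MGST1 (ENSG00000008394.13, chromosome 12) had 1 count in all 6 libraries together, in siE7 replicate 3. A count of 0 allows up to 3 counts, or 0.101 to 0.122 CPM depending on the library, which leaves out siE7 replicate 3 with its 1 count. No difference was therefore detectable and no fold is given. These limits cover counting error only.

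Levels of different genes were compared per kilobase of merged exons. With siNC the order from high to low was GSTP1 (479 CPM per kilobase), GPX4 (306), GPX1 (214), GSS (21.95), GSR (8.48), GCLM (3.79), GCLC (2.95), GPX2 (0.851) and SLC7A11 (0.469). Neighbours in this order did not overlap between libraries, except GPX2 and SLC7A11. With siE7 the order was the same, with GSTP1 at 429, GPX4 at 323, GPX1 at 126, GSS at 17.8 and GSR at 15.9 CPM per kilobase. GCLM followed at 7.32, GCLC at 5.87, GPX2 at 1.67 and SLC7A11 at 1.34 CPM per kilobase. Here GSTP1 and GPX4, GSS and GSR, GCLM and GCLC, and GPX2 and SLC7A11 overlapped. GSTP1, GPX4 and GPX1, the genes with the highest levels per kilobase in both groups, encode enzymes that use glutathione, and GPX2, another such enzyme, was next to the lowest of those tested. Of the summed level per kilobase of the 3 peroxidases, GPX1 made up 37.9 to 42.9% with siNC and 27.5 to 28.8% with siE7. GPX4 made up 57.0 to 61.9% with siNC and 70.8 to 72.1% with siE7. GPX2 was under 0.4% of this sum in every library. With the length of the longest transcript in place of merged exons, GCLC and GCLM changed places in both groups. With siE7 GPX4 (502 CPM per kilobase) then also came before GSTP1 (450), so 8 of the 10 genes kept their rank with siNC and 6 with siE7.

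Other genes of the pathway were read from 8 lists of 101 genes in all, of which 87 had a row and 80 were tested. In these lists 11 genes were higher, 10 were lower and 59 were not called with siE7. The share called was 26.2%, beside 34.0% of all tested genes, and the median log2 fold change was -0.04. Over all tested genes 18.0% were higher and 16.0% were lower, shares that also stand beside the counts of each list below. Without TMM factors the calls were 19 higher and 7 lower, and the median of all tested genes moved up by 0.169. With all libraries edgeR gave 4 DEGs in these lists, all upregulated, and 9 of 15 alternative settings, DESeq2 among them, gave 1 or 2 downregulated DEGs. Without siNC replicate 1 the lists held 13 called genes, without siNC replicate 3 they held 12, and without siE7 replicate 1 they held 43, 19 higher and 24 lower. The share of all tested genes called in these settings is not given here, so these counts are not read as a result about the pathway.

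In the list of cysteine supply 3 of 9 tested genes were higher and 0 were lower by edgeR, also 0 at an unadjusted p under 0.05 and 0 by DESeq2. The share called, 33.3%, was near the 34.0% of all tested genes. CTH, which makes cysteine from cystathionine, was at 0.486, 0.600 and 0.341 CPM with siNC and at 1.65, 1.56 and 1.11 CPM with siE7. It is a low gene whose groups did not overlap, with a log2 fold change of 1.59 (SE 0.370, edgeR adjusted p = 0.00662). CBS, the enzyme before it in transsulfuration, was at 0.330 ± 0.133 CPM and 0.958 ± 0.0361 CPM (SD, n = 3 each), a log2 fold change of 1.53 (edgeR adjusted p = 0.0145). This value is uncertain, because CBS has the near-identical copy CBSL with 0 to 11 counts per library, and its call was lost without siNC replicate 1 (1.43, adjusted p = 0.063) and without siNC replicate 3 (1.31, adjusted p = 0.077). The remaining called gene, SLC1A5, a glutamine transporter, was higher at 0.73 (edgeR adjusted p = 0.00273) and is named after its value was seen.

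Among breakdown and salvage genes 1 of 10 tested genes was higher and 2 were lower. CHAC1, which cleaves glutathione in the cytosol and is a target of ATF4, was at 3.44, 2.36 and 5.83 CPM with siNC and at 16.3, 11.6 and 10.1 CPM with siE7. The groups did not overlap. Its log2 fold change was 1.71 (SE 0.298, edgeR adjusted p = 0.00135), and without siE7 replicate 1 it was 1.42. CNDP2, a dipeptidase that splits the cysteine and glycine dipeptide, was lower at -0.82 (edgeR adjusted p = 4.48e-04), and the other lower gene was ANPEP at -0.72 (adjusted p = 0.0497), both named after their values were seen.

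Of 16 tested genes among the other transferases 2 were higher and 3 were lower. GSTA4, which conjugates the lipid aldehyde 4-hydroxynonenal, was at 0.405 ± 0.141 CPM with siNC and 1.03 ± 0.154 CPM with siE7 (SD, n = 3 each). Its log2 fold change was 1.34 (SE 0.400, edgeR adjusted p = 0.0235), and its call was lost with DESeq2 (1.29, adjusted p = 0.07), without siNC replicate 1 (1.07, 0.1), replicate 2 (1.46, 0.06) or replicate 3 (1.49, 0.056) and without siE7 replicate 3 (1.21, 0.085). Of the omega class transferases, GSTO1 was lower at -0.78 (edgeR adjusted p = 4.12e-04) and GSTO2 was higher at 0.53 (edgeR adjusted p = 0.0238). Both were named after their values were seen. In the other peroxidases and glutaredoxins 1 of 7 was called, GLRX, the cytosolic glutaredoxin, with a log2 fold change of 0.63 (SE 0.205, edgeR adjusted p = 0.0337). That call was lost with DESeq2 (0.57, adjusted p = 0.058), without siNC replicate 1 (0.55, 0.14) or replicate 3 (0.54, 0.15) and without siE7 replicate 2 (0.62, 0.085) or replicate 3 (0.57, 0.1).

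Of 9 genes for export and mitochondrial import 1 was higher and 1 was lower. ABCC5, an efflux pump for organic anions, rose from 36.2 ± 2.04 to 59.9 ± 5.79 CPM (SD, n = 3 each), or 0.73 on the log2 scale (SE 0.121, edgeR adjusted p = 9.74e-04). The lower gene, named after its value was seen, was SLC25A39 at -0.53 (edgeR adjusted p = 0.0147). Of 6 genes for glyoxalase and formaldehyde removal 0 were called by edgeR, 0 had an unadjusted p under 0.05 and 0 were called by DESeq2. GPX1, GPX2 and GPX4 are selenoproteins. In the list of selenoprotein synthesis 3 of 10 genes were lower and 0 were higher by edgeR, with 1 higher at an unadjusted p under 0.05 and 0 by DESeq2. The share called, 30.0%, was near the 34.0% of all tested genes. SEPHS1, a paralog of selenophosphate synthetase, fell from 73.0 ± 5.33 to 49.99 ± 2.31 CPM (SD, n = 3 each), or -0.55 on the log2 scale (SE 0.112, edgeR adjusted p = 0.00349).

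Among 13 regulators 3 were higher and 1 was lower. ATF4 was at 181.7, 169.8 and 190.1 CPM with siNC and at 373.7, 333.0 and 366.1 CPM with siE7. The groups lay far apart against their spread, and the log2 fold change of ATF4 was 0.99 (SE 0.108, edgeR adjusted p = 6.26e-05), or 0.89 without siE7 replicate 1. NFE2L2, the gene of NRF2, was at 18.4, 19.5 and 18.4 CPM with siNC and at 13.8, 25.5 and 25.2 CPM with siE7. The siE7 replicate 1 library lay below the siNC range and the other siE7 libraries above it. The log2 fold change of NFE2L2 was 0.20 (SE 0.210, 95% interval -0.26 to 0.65, edgeR adjusted p = 0.499). Without siE7 replicate 1 it was 0.37 and called (edgeR adjusted p = 0.00081). With all libraries kept and the GC trend removed it was 0.04 and not called (edgeR adjusted p = 0.77). NFE2L2 shares 23.4% of its exon bases with HNRNPA3 on the opposite strand, a far more abundant gene, and whether counting used the strand is not given in the sources used here. KEAP1, which targets NRF2 for degradation, was at 44.5 ± 2.38 CPM and 56.2 ± 7.19 CPM (SD, n = 3 each), with a log2 fold change of 0.34 (edgeR adjusted p = 0.0586). KEAP1 was called higher in 6 of 15 alternative settings. These were upper-quartile scaling (0.36, adjusted p = 0.047), no composition scaling (0.50, 0.0054), at least 10 counts in every library (0.36, 0.044), the GC trend removed (0.33, 0.0027), the same with the replicate block (0.33, 0.0038), and without siE7 replicate 1 (0.17, 0.048). BACH1, a repressor at the same DNA elements, was at 4.42 ± 1.11 CPM and 4.49 ± 1.31 CPM (SD, n = 3 each), with a log2 fold change of 0.02 (edgeR adjusted p = 0.961) whose sign changed between settings. The other higher regulators, named after their values were seen, were SQSTM1 at 0.85 (edgeR adjusted p = 4.34e-04) and MAFG at 0.70 (edgeR adjusted p = 0.0013). The lower regulator was MAFF at -0.49 (edgeR adjusted p = 0.0164), and MAFK was not called (0.02, edgeR adjusted p = 0.902). Both of these were also named after their values were seen. Transcript levels do not show the activity of NRF2 or ATF4, which are also set at the level of protein.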

How the data were processed

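Poly(A) RNA of SCC-9 cells was sequenced in 6 stranded libraries with paired-end reads of 150 bases. The authors deposited 1 table of counts of reads per gene, whole numbers without normalization. The submitters' processing notes name HISAT2, DESeq2 and GRCh38. The counting tool, the annotation release and the use of strand in counting are not given in the sources used here. Groups were taken from the sample titles.

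In R 4.3.3 with edgeR 4.0.16, filterByExpr kept 14661 of 25349 genes and TMM factors ran from 0.936 to 1.10. The groups were compared by the robust quasi-likelihood F-test of edgeR, with p-values adjusted by the Benjamini-Hochberg method. Standard errors were taken as the log2 fold change over the square root of F. Ratios of counts within libraries, with 0.5 added, were compared by exact two-sided permutation tests. The scripts were checked on simulated counts with the same dispersion for every gene and without a departing library or GC trend. The departure of siE7 replicate 1 is not covered by that simulation. Same-numbered siNC and siE7 libraries did not deviate together (r = -0.0423 to -0.0142), and the replicate numbers were not taken as pairs in the main fit. This check does not exclude pairing. Gene positions, lengths, GC content and overlaps are from GENCODE 44, to which 25283 gene identifiers were matched, and promoters are from RefSeq (GRCh38.p14).

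The members and lists were chosen with earlier results of these data known. Genes named are all members, MKI67, NFE2L2, KEAP1, BACH1, ATF4, SLC3A2 and, in each other list, called genes with a log2 fold change beyond 1 (at most 4) or, where there were none, the called gene with the smallest p. Genes outside this rule are said to be named after their values were seen. Alternatives were DESeq2 1.42.0, other scalings (RLE, upper-quartile, none), other filters (none, or at least 10 counts in every library), the replicate number as a block, a lowess correction for GC content (span 0.3) alone or with that block, and fits with 1 library left out. Tables and figures were made with Python 3.11.15, pandas 2.3.3 and matplotlib 3.10.9.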

Additional observations from a re-analysis of the deposited data

How the results depend on the processing

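Of 466 values under alternative settings, 401 were kept. Kept means the same direction and side of the threshold for a tested value, a count within 1.5 times the main count, and a median within 1 SD between the siE7 libraries. Between 5 and 8 members were called, 5 with DESeq2 and without siNC replicate 1, siNC replicate 2 or siE7 replicate 2, where GPX2 was lost, and 8 without siE7 replicate 1 and with the GC trend removed, where GSS and GSTP1 were added as lower. The number of members that were DEGs was 1 with all libraries, 2 with upper-quartile scaling or at least 10 counts in every library, 5 without composition scaling, and 1 to 3 with a library left out, where it was 3 without siNC replicate 3 or siE7 replicate 1 and 2 without siE7 replicate 3. The median log2 fold change of the members was 1.07 without composition scaling and 0.737 to 0.928 with a library left out, lowest without siNC replicate 2. Called genes in the other lists numbered 21, then 37 with the GC trend removed, and 12 to 43 with a library left out. DEGs in these lists numbered 4, then 7 without composition scaling, 2 with at least 10 counts, and 2 to 7 with a library left out. Shares of all tested genes are given for the main fit only, so the counts under other settings have no such share beside them.

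With a block on the replicate number 6 members were called and 1 was a DEG, and in the other lists 24 genes were called and 5 were DEGs. With the GC trend removed as well as the block, 8 members and 38 genes of the other lists were called, here too without the share of all tested genes. The block alone changed no call of a member. Whether the numbers mark pairs is not stated. Same-numbered libraries did not deviate together, but the large departure of siE7 replicate 1 means that this check could miss a shared batch.

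The sign changed without siE7 replicate 1 for GPX4 (-0.0935) and SLC3A2 (-0.0027), whose log2 fold changes reached 0.158 and 0.246 when other libraries were left out. The log2 difference of the GCLC to GCLM ratio turned without siNC replicate 1 (-0.0274) or siE7 replicate 1 (-0.0033) and reached 0.196 without siNC replicate 3. BACH1 was at -0.0426 with DESeq2, -0.0329 with RLE scaling, -0.0988 with the GC trend removed, -0.0816 with the block as well, and -0.146 to 0.222 with a library left out. GPX4 and BACH1 were called in no setting, and SLC3A2 only without composition scaling. Apart from fewer libraries or genes in a fit, the cause of these changes was not tested. The depth limits GPX2, CTH, CBS and GSTA4, which had few counts, and gives no comparison for MGST1.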
